A study of Oryza sativa with 12 samples.

Results

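Aminoacyl-tRNA synthetases join each amino acid to the transfer RNAs that carry its anticodons, so that every codon is read with the right residue. The enzymes fall into 2 unrelated structural classes, class I and class II, and several of them also remove wrongly attached amino acids. Plants need them in the cytosol, the plastids and the mitochondria, and all are encoded in the nucleus. Here 7 loci of rice that encode or are annotated as such enzymes were followed in young florets at meiosis, each through the probe set that the study lists for it, out of 57258 probe sets measured. The loci were valyl (LOC_Os03g02100), arginyl (LOC_Os01g06510), isoleucyl (LOC_Os02g09100), lysyl (LOC_Os03g38980), seryl (LOC_Os01g37837) and alanyl (LOC_Os10g10244) tRNA synthetase genes, and LOC_Os01g54020, which the files call a tRNA synthetase without naming an amino acid. Their locus numbers place 3 on chromosome 1, 2 on chromosome 3 and 1 each on chromosomes 2 and 10.

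The samples were meiosis-stage inflorescences of TGMS-Co27, a transgenic line made in H1493 in which an overexpressed Ugp1 construct silences the gene for UDP-glucose pyrophosphorylase by cosuppression, and of wild-type H1493. TGMS-Co27 is male sterile when it is warm and fertile when it is cool, whereas H1493 is fertile in both settings. The 4 groups were TGMS-Co27 at low temperature (Co27LT) and at high temperature (Co27HT) and H1493 at low temperature (H1493LT) and at high temperature (H1493HT), with daily averages of 20 °C and 28 °C for the low and the high setting, and each had 3 biological replicates on 1 Affymetrix rice array each. Low-temperature plants grew in winter at a southern site with shorter days and high-temperature plants in summer at another site, so temperature, season, day length and place cannot be told apart. TGMS-Co27 is a single transgenic line, and the labels do not say how many plants went into a sample, so the spread between replicates may be partly technical.

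The 7 loci were chosen by these same signals, namely as genes that differed between Co27LT and Co27HT and that held central places in a co-expression network over all 4 groups. Their values between groups are therefore a description and carry no test. Values are log2 signals as deposited, on which a difference of 1 is a 2-fold change. Differences come with the standard error (SE) and the 95% interval of a limma fit to all 12 arrays and all 57258 probe sets. A probe set was called where the Benjamini-Hochberg adjusted p of that fit was under 0.05 and the change was at least 2-fold.

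All 7 probe sets had higher signals at low temperature than at high temperature in both lines, and in neither line did any value of one temperature reach into the range of the other. The replicates of 20.0% of all probe sets lay apart with low temperature higher in TGMS-Co27 and of 20.3% in H1493, and among the 24891 probe sets that averaged a log2 signal of 6 or more this share was 39.0% in each line. The median log2 difference of the 7 was 1.83 in Co27LT vs. Co27HT and 1.37 in H1493LT vs. H1493HT, while the medians of all probe sets were -0.16 and -0.07. With log2 signals under 5 set to 5, which lowers the isoleucyl value, the medians of the 7 were 1.19 and 1.20.

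**Figure D1:**
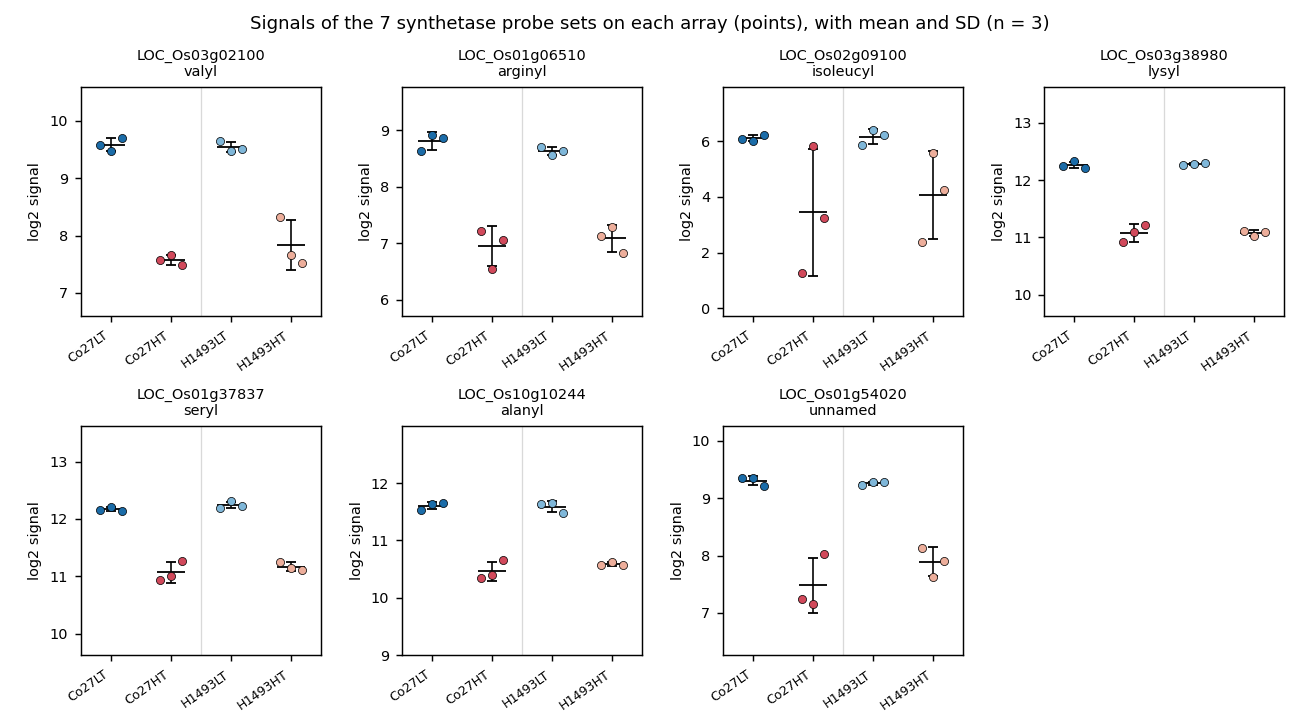
Log2 signal (vertical axes, each with its own range) of the 7 probe sets on each array, by group; points are replicates 1 to 3 from left to right, and the bar and whiskers are the mean and the SD (n = 3). In every panel the 3 low-temperature points of a line lie above its 3 high-temperature points, and the isoleucyl panel shows the widest scatter at high temperature.

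Among the class I enzymes, valyl-tRNA synthetase has an editing site that clears threonine from its transfer RNA, and in Arabidopsis its counterpart is needed in the early embryo. The valyl probe set (LOC_Os03g02100) had log2 signals of 9.58, 9.48 and 9.70 in Co27LT, against 7.58, 7.66 and 7.49 in Co27HT. The Co27LT values were all high and close together, and the difference was 2.01 (SE 0.19, 95% interval 1.58 to 2.44), a 4.02-fold change. In H1493 the signals were 9.64, 9.48 and 9.51 in H1493LT and 8.33, 7.67 and 7.51 in H1493HT, a difference of 1.71 (95% interval 1.28 to 2.14). Replicate 1 of H1493HT stood above the other 2, and without it the H1493 difference was 1.95. The RefSeq gene table lists this locus as a transcribed pseudogene, whereas the study's files describe a putative expressed valyl-tRNA synthetase.

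Arginyl-tRNA synthetase is a class I enzyme that binds its transfer RNA before it can activate arginine. The arginyl probe set (LOC_Os01g06510) had log2 signals of 8.64, 8.93 and 8.87 in Co27LT, against 7.23, 6.55 and 7.06 in Co27HT, a difference of 1.87 (SE 0.19, 95% interval 1.44 to 2.30). The lowest value of the 12 arrays was that of Co27HT replicate 2. In H1493LT the signals were 8.71, 8.56 and 8.64 and in H1493HT 7.14, 7.29 and 6.82, a difference of 1.55 (95% interval 1.12 to 1.98). The temperature groups lay more than 1 log2 unit apart at their nearest replicates, by 1.42 in TGMS-Co27 and by 1.26 in H1493.

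Isoleucyl-tRNA synthetase, also class I, clears valine from its transfer RNA. Its probe set (LOC_Os02g09100) was near background. The log2 signals were 6.06, 6.01 and 6.22 in Co27LT, all called present, against 1.26, 5.81 and 3.25 in Co27HT, all called absent. In H1493LT they were 5.86, 6.41 and 6.21, with 1 array called present and 2 marginal, and in H1493HT 2.39, 5.56 and 4.26, all called absent. The low-temperature values sat within a narrow range, whereas the high-temperature values were scattered, and the nearest replicates of the temperatures were only 0.20 apart in TGMS-Co27 and 0.30 apart in H1493. The differences were 2.66 (SE 1.08, 95% interval 0.21 to 5.10) in TGMS-Co27 and 2.09 (95% interval -0.35 to 4.53) in H1493. Since no high-temperature array measured this probe set above background, neither difference has a measured size. With values under a log2 signal of 5 set to 5, the log2 differences were 0.82 in TGMS-Co27 and 0.97 in H1493. Leaving out Co27HT replicate 1 gave 1.57 and leaving out Co27HT replicate 2 gave 3.84 in TGMS-Co27, and leaving out H1493HT replicate 1 gave 1.25 in H1493, so that single arrays set the size.

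LOC_Os02g09100 is also the member for which the study designed a primer pair for quantitative RT-PCR. The primers are shown because they are the sequences of these genes that the study's files give, and the PCR values were not analysed here.
Forward primer, LOC_Os02g09100: gtgttgtgatggctccgttt
Reverse primer, LOC_Os02g09100: tcctgttgacactgtgctca

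Among the class II enzymes, lysyl-tRNA synthetase (LOC_Os03g38980, described in the files by its class II domain and listed as LysRS in RefSeq) charges the transfer RNAs for lysine. Its log2 signals were 12.25, 12.33 and 12.22 in Co27LT, against 10.92, 11.09 and 11.22 in Co27HT, a difference of 1.19 (SE 0.09, 95% interval 0.97 to 1.40). In H1493LT they were 12.26, 12.28 and 12.29 and in H1493HT 11.11, 11.02 and 11.09, a difference of 1.20 (95% interval 0.99 to 1.42). Both lines thus showed the same size of change to within 0.02, and the 3 H1493LT replicates were the tightest of its 4 groups (SD 0.02).

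Seryl-tRNA synthetase recognises its transfer RNA by the long variable arm and not by the anticodon. The seryl probe set (LOC_Os01g37837) had log2 signals of 12.16, 12.21 and 12.14 in Co27LT, against 10.93, 11.01 and 11.27 in Co27HT, a difference of 1.10 (SE 0.10, 95% interval 0.87 to 1.34). In H1493LT they were 12.20, 12.31 and 12.23 and in H1493HT 11.25, 11.14 and 11.11, a difference of 1.08 (95% interval 0.84 to 1.31). This probe set is of a kind that can bind transcripts of more than 1 gene, so its signal may not be that of this locus alone.

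Alanyl-tRNA synthetase clears serine and glycine from its transfer RNA, and in Arabidopsis one gene serves both the cytosol and the mitochondria. The alanyl probe set (LOC_Os10g10244) had log2 signals of 11.54, 11.63 and 11.65 in Co27LT, against 10.34, 10.39 and 10.65 in Co27HT, a difference of 1.15 (SE 0.10, 95% interval 0.91 to 1.38). In H1493LT they were 11.63, 11.65 and 11.48 and in H1493HT 10.57, 10.62 and 10.58. The H1493 difference of 0.998 (95% interval 0.76 to 1.24) was a 1.998-fold change, just under 2-fold.

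LOC_Os01g54020 is described as a tRNA synthetase in rice, and its closest Arabidopsis protein is listed only by its nucleotidylyl transferase superfamily, the fold of the class I enzymes. Its log2 signals were 9.36, 9.35 and 9.21 in Co27LT, against 7.25, 7.16 and 8.03 in Co27HT, a difference of 1.83 (SE 0.22, 95% interval 1.33 to 2.33). Replicate 3 of Co27HT stood well above the other 2. In H1493LT the signals were 9.23, 9.28 and 9.28 and in H1493HT 8.13, 7.63 and 7.91, a difference of 1.37 (95% interval 0.87 to 1.87). The 3 H1493LT values were nearly equal.

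Among the 6 probe sets with clear signals, the log2 differences of Co27LT vs. Co27HT thus ran from 1.10 to 2.01. The seryl, alanyl and lysyl values, 1.10, 1.15 and 1.19, lay just inside the 2-fold limit by which the genes were picked, and LOC_Os01g54020 and the arginyl and valyl loci lay between 1.83 and 2.01. Just outside the limit among the other synthetase genes were the brightest probe sets of the glycyl gene LOC_Os06g01400 at 0.96, of HisRS at 0.88 and of LOC_Os01g60660 at 0.87.

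The comparisons between lines ask whether the silenced Ugp1 line departed from the wild type at a given temperature. In Co27HT vs. H1493HT, where TGMS-Co27 is sterile, 27389 of all 57258 probe sets had differences below 0. The 7 were picked on Co27LT vs. Co27HT, which shares the Co27HT arrays, so the choice favours values below 0 among them. Of the 7 log2 differences, 6 were below 0. They ran from -0.63 (95% interval -3.07 to 1.81) for the isoleucyl to 0.00 (95% interval -0.21 to 0.22) for the lysyl probe set, and the largest among the 6 clear probe sets was -0.41 (95% interval -0.92 to 0.09) for LOC_Os01g54020. The valyl probe set gave -0.26 (95% interval -0.69 to 0.17), the arginyl -0.14 (95% interval -0.57 to 0.29), the alanyl -0.13 (95% interval -0.37 to 0.11) and the seryl -0.10 (95% interval -0.34 to 0.13). All these intervals include 0, and those of the lysyl, seryl and alanyl probe sets leave room for differences of less than 0.4 only.

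In Co27LT vs. H1493LT, where both lines are fertile, the log2 differences of the 7 lay between -0.08 for the seryl and 0.18 (95% interval -0.25 to 0.61) for the arginyl probe set. In both comparisons the replicates of the lines overlapped for all 7 genes, while the replicates of 22.5% of all probe sets at high temperature and of 19.8% at low temperature lay apart in one direction or the other. In level, each gene therefore had its low-temperature groups on top and its high-temperature groups below, and within each temperature the replicates of the lines overlapped.

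The line-by-temperature interaction is the Co27LT vs. Co27HT difference minus the H1493LT vs. H1493HT difference. It was above 0 for 6 of the 7 genes, and for 27396 of all 57258 probe sets. The 95% intervals of all 7 include 0. Because the 7 were picked on Co27LT vs. Co27HT, which enters it, the interaction could be tilted toward values above 0 by the choice. Its log2 values were 0.57 (95% interval -2.89 to 4.02) for the isoleucyl probe set, 0.46 (95% interval -0.25 to 1.17) for LOC_Os01g54020, 0.32 (95% interval -0.29 to 0.92) for the arginyl and 0.30 (95% interval -0.31 to 0.91) for the valyl. The alanyl value was 0.15 (95% interval -0.19 to 0.48), the seryl 0.03 (95% interval -0.31 to 0.36) and the lysyl -0.01 (95% interval -0.32 to 0.29). Leaving out 1 array at a time moved several of these. Without H1493HT replicate 1 the valyl value was 0.06, without Co27HT replicate 3 the value of LOC_Os01g54020 was 0.74, and without Co27HT replicate 1 the isoleucyl value was -0.52.

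**Figure D2:**
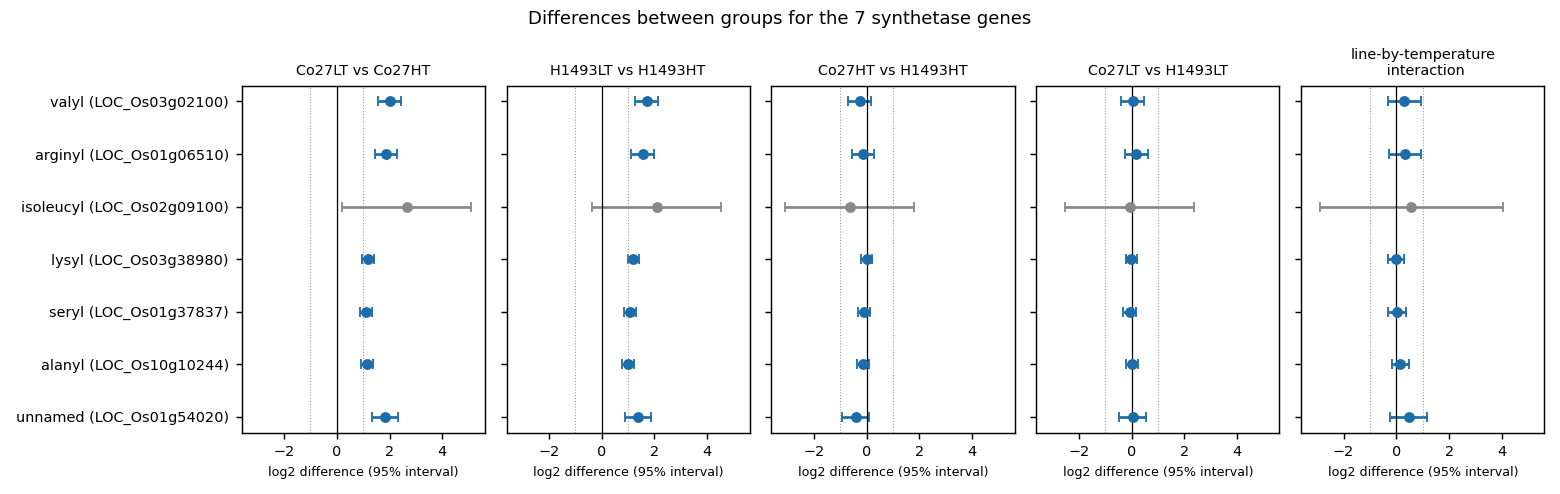
Log2 differences (horizontal axes, shared range) of the 7 genes in the 5 comparisons, with the 95% interval of the limma fit; dotted lines mark a 2-fold change and the isoleucyl probe set, near background, is grey. Both temperature comparisons lie to the right of 0 for every gene, for the 6 with clear signals from 1.10 to 2.01 in TGMS-Co27 and from 0.998 to 1.71 in H1493, and all intervals of the line comparisons and of the interaction include 0.

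The probe sets differed in how far replicates can be trusted. The SD of replicates within groups was 0.08 for the lysyl and 0.10 for the seryl and alanyl probe sets, 0.23 for the arginyl and valyl, 0.27 for LOC_Os01g54020 and 1.40 for the isoleucyl. Over all probe sets the median SD was 0.08 at mean log2 signals of 11 to 12, 0.17 at 8 to 9 and 1.07 at 4 to 5. The 7 genes followed this course, and LOC_Os01g54020 lay above the 90th percentile of its signal range, 0.26. Array by array, 5 of the 6 clear probe sets were above their group mean on Co27HT replicate 3, by 0.19 on average over the 6, and 5 were above it on H1493HT replicate 1, by 0.15. Co27HT replicate 3 was also the array with the highest median over all probe sets, 5.74.

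**Figure D3:**
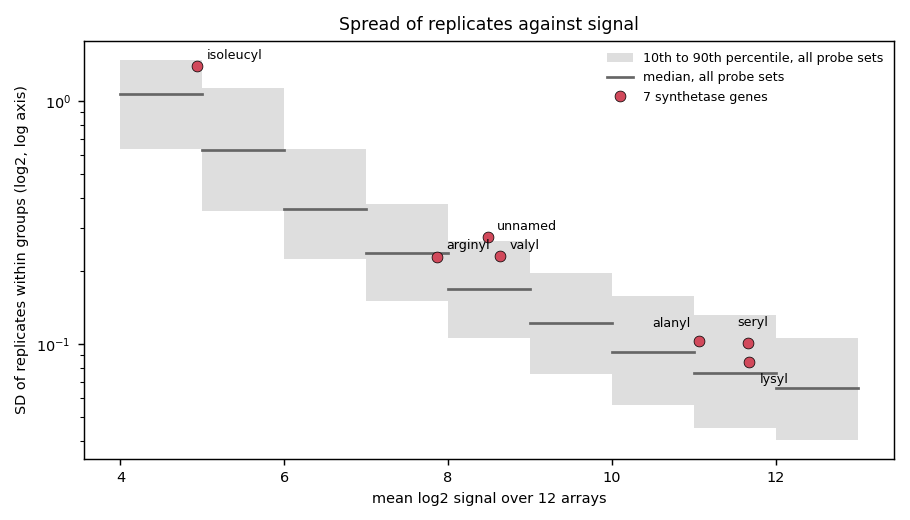
SD of replicates within groups (vertical axis, log scale, log2 units) against the mean log2 signal over the 12 arrays for the 7 genes (points), with the median (line) and the range from the 10th to the 90th percentile (grey) of all probe sets per signal bin. The spread narrows as the signal grows, and the isoleucyl gene, at an SD of 1.40, is the only 1 of the 7 near background.

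Over the 12 arrays the 6 clear probe sets were alike in course, with Pearson r between 0.94 and 0.99 for the 15 pairs (median 0.97). These arrays fall into a low and a high temperature set and the genes were chosen for this shared step, so the r values describe that step. Once the group means were taken away, the median r of the 15 pairs was 0.14. The lysyl, seryl and alanyl genes and LOC_Os01g54020 still varied together from array to array, with r from 0.59 to 0.88 over the 6 pairs. Their largest deviations were on Co27HT arrays, so these r values lean on that group. Its replicate 3 lay above the group mean by 0.14, 0.20, 0.19 and 0.55 for these genes in turn. The valyl and arginyl genes varied together little, at 0.09 with each other. The isoleucyl gene correlated with the other 6 at 0.62 to 0.73 over the 12 arrays with the group means left in. With the group means taken away, its r with them ran from -0.56 to 0.20.

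The pattern was common on the arrays. Of 17034 other probe sets with 1 annotated gene and an average log2 signal of 6 or more, 1364 (8.01%) had an r above 0.95 with the mean centred signal of the 7 genes over the 12 arrays. The 6 most alike were LOC4348629, LOC9271299, LOC4332774, LOC4344170, LOC4352148 and LOC4348965, all with r of 0.99, and the tables at hand give no description of them. The isoleucyl gene's large scatter weighs on this mean, and with the 6 clear genes alone LOC4332774 ranked 46 and LOC4348965 ranked 171, both at 0.99, while the other 4 ranked between 839 and 1072.

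Beyond the 7 loci, 9 further synthetase genes could be found by name, and these were tested. Of the 9, 7 come from the study's own lists of genes that differed in these samples. They are no independent evidence of direction or of how often synthetase genes are called, since the lists favour calls. HisRS (LOC4337830) and MetRS (LOC4341140) were found through their RefSeq names alone, and neither was called in either temperature comparison. In Co27LT vs. Co27HT, 4 of the 9 were called higher and 1 lower, against 7.05% of all probe sets called higher and 7.30% called lower. In H1493LT vs. H1493HT 3 were called higher and none lower, against 5.34% and 6.23% of all probe sets (7 at an unadjusted p under 0.05, all higher, against 34.9% of all probe sets in either direction). Their median log2 differences were 0.96 and 0.88.

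The HisRS gene, whose enzyme charges the transfer RNA for histidine, had log2 signals of 11.39, 11.46 and 11.50 in Co27LT, against 10.48, 10.63 and 10.59 in Co27HT. It was higher by 0.88 (SE 0.10, limma adjusted p = 1.0e-04), and by 0.89 (adjusted p = 1.1e-04) in H1493LT vs. H1493HT, under 2-fold each time. The MetRS gene, for methionine, had 10.94, 10.87 and 10.88 in Co27LT, against 10.41, 10.32 and 10.43 in Co27HT. It was higher by 0.51 (SE 0.11, limma adjusted p = 0.0060) and in H1493 by 0.47 (adjusted p = 0.011). Neither differed between the lines past the threshold, with log2 differences of -0.01 and -0.09 in Co27HT vs. H1493HT (limma adjusted p = 0.97 and 0.76).

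Of the genes that share an amino acid with a member, both further alanyl genes rose at low temperature. LOC_Os07g15440, an alanyl family protein with the same closest Arabidopsis protein as the member, had log2 signals of 10.75, 10.75 and 10.78 in Co27LT, against 8.87, 9.09 and 9.37 in Co27HT, a difference of 1.65 (limma adjusted p = 3.2e-05). In H1493 it was 1.20 (adjusted p = 2.7e-04). LOC_Os06g13660, whose Arabidopsis counterpart is an embryo-lethal locus, had 7.91, 8.26 and 7.74 in Co27LT, against 6.502, 6.65 and 6.43 in Co27HT, a difference of 1.45 (limma adjusted p = 1.6e-04), and 1.32 (adjusted p = 3.4e-04) in H1493. The second isoleucyl locus, LOC_Os02g09120, ran the other way but was called present on only 1 array. It had 3.79, 1.03 and 0.15 in Co27LT, against 4.45, 4.88 and 5.56 in Co27HT, all called absent, so that its log2 difference of -3.31 (limma adjusted p = 0.029) has no measured size, and with values under 5 set to 5 it was -0.19 (adjusted p = 0.82). Leaving out any 1 Co27HT array, or Co27LT replicate 2 or 3, ended this call (adjusted p from 0.050 to 0.10).

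The remaining called genes were a methionyl and a glutaminyl gene in TGMS-Co27 and a methionyl gene in H1493. LOC_Os03g11120, whose closest Arabidopsis protein is the chloroplast methionyl enzyme, had log2 signals of 10.02, 9.96 and 10.13 in Co27LT, against 8.67, 8.81 and 9.003 in Co27HT. It rose by 1.21 (limma adjusted p = 7.0e-05), and by 0.67 (adjusted p = 0.0029) in H1493. LOC_Os01g60660, called a methionyl-tRNA synthetase in the files although its closest Arabidopsis protein is a nucleic acid-binding protein, rose by 1.03 (limma adjusted p = 3.7e-05) in H1493LT vs. H1493HT and by 0.87 (adjusted p = 8.2e-05) in Co27LT vs. Co27HT. A second probe set of that gene gave 1.08 (adjusted p = 0.0021) in H1493 and 0.53 (adjusted p = 0.062) in TGMS-Co27. The glutaminyl gene LOC_Os01g09000 was called present on 1 array only. Its log2 signals of 5.22, 4.34 and 5.52 in Co27LT and 1.35, 4.53 and 1.996 in Co27HT overlapped, and its call (2.40, limma adjusted p = 0.047) was lost without any 1 array of those groups other than Co27HT replicate 2, and without any H1493LT array or H1493HT replicate 3 (adjusted p from 0.056 to 0.15).

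The organellar glycyl gene LOC_Os06g01400 stayed under 2-fold by its brightest probe set. This was higher by 0.96 (limma adjusted p = 0.0020) in Co27LT vs. Co27HT and by 0.41 (adjusted p = 0.12) in H1493LT vs. H1493HT. Like the seryl one, that probe set is of a kind that can bind transcripts of more than 1 gene. Another probe set of the gene, not of that kind, gave 1.11 (limma adjusted p = 1.1e-04), over 2-fold, and 0.84 (adjusted p = 7.2e-04). Yet another, called absent on all 12 arrays, differed from these in the line comparison at high temperature, with log2 signals of 2.32, 2.09 and 3.18 in Co27HT, against 5.01, 5.84 and 4.98 in H1493HT (-2.74, limma adjusted p = 0.023), a difference wholly below background.

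Between the lines, none of the 9 genes was called in Co27HT vs. H1493HT, in Co27LT vs. H1493LT or in the interaction, against 0.657%, 0.700% and 0.590% of all probe sets. At an unadjusted p under 0.05 in the limma fit there were 4, 1 and 2, against 16.8%, 10.2% and 13.1% of all probe sets. The 4 at high temperature were all lower in Co27HT, namely LOC_Os06g13660 by -0.52, LOC_Os06g01400 by -0.50, LOC_Os03g11120 by -0.49 and LOC_Os07g15440 by -0.48 on the log2 scale (limma adjusted p = 0.16, 0.17, 0.080 and 0.14). The model was also fitted and adjusted only over probe sets that averaged 6 or more. There the limma adjusted p of these 4 was 0.035, 0.039, 0.010 and 0.026, still under 2-fold. In a robust limma-trend fit it was 0.11, 0.042, 0.0051 and 0.0099. The interaction of LOC_Os03g11120, 0.54 with an adjusted p of 0.23 in the main limma fit, had 0.043 in the former and 0.041 in the latter, also under 2-fold. For the 4 genes named at high temperature, all Co27HT replicates lay below all H1493HT replicates. None of the 9 genes lay apart the other way, and 22.5% of all probe sets lay apart in either direction. All 4 come from the study's own lists. The gap was narrowest for LOC_Os07g15440, with 8.87, 9.09 and 9.37 in Co27HT, against 9.82, 9.56 and 9.38 in H1493HT, almost level at the nearest. The highest Co27HT and lowest H1493HT values were 6.65 and 6.91 for LOC_Os06g13660. They were 8.06 and 8.32 for LOC_Os06g01400 and 9.003 and 9.15 for LOC_Os03g11120.

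**Figure D4:**
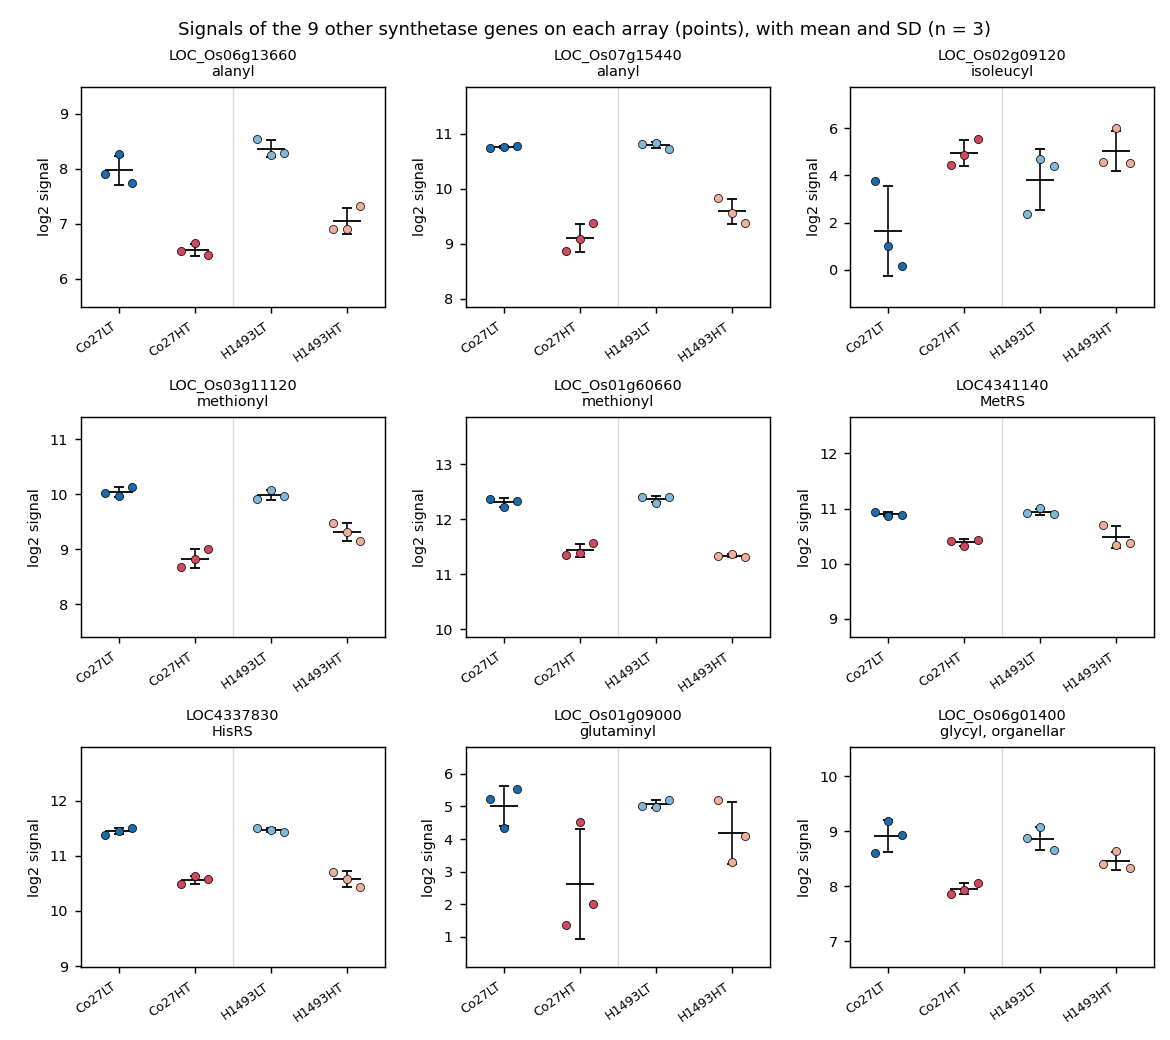
Log2 signal (vertical axes, each with its own range) of the 9 other synthetase genes on each array, by group, each through its probe set of highest mean signal; points are replicates 1 to 3 from left to right, with mean and SD (n = 3). In 7 of the 9 panels the low-temperature points of both lines lie above the high-temperature points of the same line, and the isoleucyl gene LOC_Os02g09120 and the glutaminyl gene LOC_Os01g09000, with mean signals of 3.88 and 4.23, are near background.

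The 3 peptidyl-tRNA hydrolase genes, whose enzymes free transfer RNA from stalled peptides, were the only genes found by description among those that serve charged transfer RNA beside the synthetases. Of the 3, which also come from the study's lists, 2 rose and 1 fell. The mitochondrial forms LOC_Os01g49900 and LOC_Os05g47630 rose by 1.25 and 1.19 in Co27LT vs. Co27HT (limma adjusted p = 5.9e-05 and 7.0e-05), and by 1.01 and 0.79 in H1493LT vs. H1493HT (adjusted p = 2.6e-04 and 9.9e-04). LOC_Os05g44390, of the hydrolase II family, fell by 1.17 in Co27LT vs. Co27HT (limma adjusted p = 3.2e-05) and by 0.98 in H1493LT vs. H1493HT (adjusted p = 1.2e-04), just under 2-fold in the wild type.

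The tissue was checked through marker genes. All 8 measured floral organ identity genes of 9 listed were called present on every array, as were 6 of 7 measured meiosis probe sets. The summed linear signal of the floral genes was 29200 to 30017 in Co27LT, against 35647 to 36922 in Co27HT. It was 31597 to 32323 in H1493LT, against 33402 to 34969 in H1493HT, so the sum ran opposite to the synthetase genes. SPW1 carried most of that fall, with mean log2 signals of 12.63 in Co27LT, 13.52 in Co27HT, 12.84 in H1493LT and 13.41 in H1493HT. At low temperature the means of 6 of the 8 genes were lower in TGMS-Co27, while in H1493 3 were lower and 5 higher. The meiosis sum was 12490 to 12794 in Co27LT, against 8410 to 9007 in Co27HT, and 13285 to 13770 in H1493LT, against 8035 to 8686 in H1493HT, in the direction of the synthetase genes. MEL1 carried most of that sum, and the means of HEI10 in both lines and of the probe set of DMC1A and DMC1B in TGMS-Co27 were lower at low temperature. The 3 measured green tissue markers summed to 16766 to 17101 in Co27LT and 2579 to 2868 in Co27HT, and to 24322 to 25690 in H1493LT and 5726 to 6612 in H1493HT, where CAB2R and PORA were higher at low temperature and RBCS was lower in both lines. The 5 measured tapetum markers, of which RTS was called present on no array, had sums of 1273 to 1396 in Co27LT and 1767 to 1978 in Co27HT, and of 1706 to 1788 in H1493LT and 2104 to 2333 in H1493HT, and all 5 means were lower at low temperature in both lines. The tapetum sum was mostly GAMYB, with mean log2 signals of 10.13 in Co27LT, 10.17 in Co27HT, 10.32 in H1493LT and 10.41 in H1493HT. GAMYB thus changed little, and C6 was called present on only 4 arrays. The part of such shifts in the synthetase values was not tested. In whole florets, fewer cells of a type and less RNA per cell cannot be told apart.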

How the data were processed

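RNA of 12 inflorescence samples, 3 in each of 4 groups, was measured on Affymetrix rice arrays. Affymetrix GeneChip Operating Software and MAS5 served to make the log2 signals of the probe sets, which the authors deposited with detection calls (present, marginal, absent). Their methods name quantile normalization, but the arrays do not share one distribution. Linear signals have a 2% trimmed mean of 500.07 to 500.08 per array, medians of the log2 signals run from 5.22 to 5.74, between 43.7% and 46.1% of probe sets are called present, and the values were used as deposited. The genome build is not given in the sources used here, so no coordinates are printed.

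After 123 control probe sets were left out, 57258 were fitted with limma 3.58.1 in R 4.3.3 (eBayes with its default prior on a mean for each of 4 groups over all 12 arrays, then Benjamini-Hochberg over all probe sets), after the fit was tested on simulated data. Calls needed an adjusted p under 0.05 and a 2-fold change. The number of arrays limits the precision. The members, lists and tests were chosen with earlier results of these data known.

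Genes were named by the study's additional files, which were incomplete as received and describe genes that the study found to differ, by the array annotation (22436 probe sets with 1 gene, 95 with several, 34727 with none) and by RefSeq synonyms. Since the annotation tables hold no descriptions, the synthetase family is not complete. Where several probe sets read 1 gene, the brightest on average stands for it. The text names the 7 members, further synthetase genes for the same amino acids, other called synthetase genes (at most 8 per direction and comparison), called accessory genes (at most 6) and the 6 probe sets most alike in pattern. HisRS, MetRS, LOC_Os06g01400 and LOC_Os01g60660 are also described where they were not called. The authors' own fold changes and p-values were not used. Alternatives were the methods' unadjusted threshold, any fold change, every probe set counted, no _x_at or _s_at probe sets, quantile normalization, arrays centred on their medians, values floored at 5, a minimum mean of 6, a fit to only the arrays compared, the replicate number as a block, a robust limma-trend fit, and each array left out. Same-numbered samples of different groups did not deviate together, with r from -0.10 to 0.04 over 18 pairs.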

Additional observations from a re-analysis of the deposited data

How the results depend on the processing

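All 7 members kept the direction low temperature above high temperature in both lines under every alternative run, except that the minimum mean of 6 leaves the isoleucyl member out. Of the members' single values under the alternatives, 625 moved by less than the replicate spread, or not at all, and 28 by more. Many of the 625 could not move. Another variance model, the replicate block, other probe sets in the fit or an array left out of another group leaves a log2 difference as it is. The floor can move only the isoleucyl values. The 625 are therefore no measure of robustness. Centring each array on its median moved the median log2 difference of all probe sets to 0.12 in Co27LT vs. Co27HT and 0.11 in H1493LT vs. H1493HT (-0.16 and -0.07 as deposited), and that of the 7 members to 2.11 and 1.55. The members' medians, 1.83 and 1.37 as deposited, were 1.74 and 1.31 after quantile normalization, 1.51 and 1.29 with the minimum mean of 6, and 1.19 and 1.20 with the floor at a log2 signal of 5, where the isoleucyl values were 0.82 and 0.97.

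Of the other 9 synthetase genes, 5 were called in Co27LT vs. Co27HT. This count was 9 at any fold change, 8 with median-centred arrays, 7 with every probe set counted and 6 without _x_at or _s_at probe sets. It was 3 with a floor at a log2 signal of 5, with a minimum mean of 6, with only the arrays compared and with the replicate number as a block. In these the near-background glutaminyl and second isoleucyl genes drop out. It was 3 to 5 when 1 array was left out, with 3 without Co27HT replicate 1, Co27LT replicate 2 or Co27LT replicate 3. In H1493LT vs. H1493HT the count of 3 became 6 at any fold change. In Co27HT vs. H1493HT it was 0, and 1 with every probe set counted, through the below-background glycyl probe set. The replicate block changed no other of these counts. Signals near background limit the isoleucyl member and the 2 dim genes.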
